A study of Mus musculus with 8 samples.

Results

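The day 4 library of sorted muscle mesenchymal progenitors was compared with the day 3 library, gene by gene, to describe the step between these days after injury. Each day is 1 library. Every row of the deposited table that spans 200 bp or more and reaches 5 FPKM (fragments normalised to transcript length and to all mapped fragments) in the higher of the 2 libraries was taken, which gave 8399 of 23846 rows. A difference is that of log2(FPKM + 1), day 4 minus day 3, and 1 or more in size is called 2-fold. With 1 library a day there is no spread between animals to test a difference against, so p-values are not given. What follows describes these 2 libraries, with the other 6 of the series beside them for the levels.

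The day 4 cells came from hindlimb muscle of C57BL/6J mice 4 days after injection of notexin, a phospholipase from snake venom that kills muscle fibres, and the day 3 cells from mice 3 days after it. Mice of every time point, the quiescent one included, carried the tamoxifen-inducible Cre CreERT2 in both copies of Hic1 and 1 Rosa26 allele with a tdTomato reporter behind a floxed stop. All received 2.5 mg tamoxifen daily for 5 days at 8 weeks of age, followed by 10 days of washout. tdTomato therefore marks cells in which the Hic1 locus was active under tamoxifen, and their descendants, and cells that began to use Hic1 later are not marked. How many mice went into a library is not stated.

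Mesenchymal progenitors are the stromal cells between muscle fibres. After injury they leave quiescence, divide, and deposit the collagen-rich matrix in which new fibres form, while macrophages clear the debris. As regeneration goes on they stop dividing and many return towards a resting fibroblast state.

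The day 4 library held more RNA of genes that mark resting fibroblasts and tendon, of Timp2 and Timp3, of complement components and of several Wnt and BMP genes. It held less RNA of genes of DNA replication and mitosis, of interferon-stimulated genes and of macrophage markers. A turn towards matrix was visible for some matrix families and not for others. None of the 7 fibrillar collagens compared reached a 2-fold difference.

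Of the 8399 genes, 276 (3.29%) were 2-fold or more higher at day 4 and 391 (4.66%) 2-fold or more lower, and 7732 (92.1%) lay within 2-fold. At 4-fold the counts were 32 higher and 55 lower. The median over all genes was -0.17, and 65.7% of genes lay below 0. The balance of directions changed with the scaling: FPKM summed to 514140 at day 4, against 629728 at day 3, and 41.4% of the 2-fold genes were higher on FPKM as deposited, 56.9% after scaling by the median ratio of the libraries and 67.6% after scaling to a common sum. These scalings moved the median of all genes to 0.00 and 0.12, so each list below is read against -0.17. Genes with short transcripts were lower at day 4 more often. With genes ranked by transcript length, the median was -0.40 in the fifth of shortest length and 0.05 in the fifth of longest length, with 7.24% and 1.89% of genes 2-fold lower. The table gives no counts. From the steps between low values the day 4 library was estimated at 12.15 M (mega) fragments and the day 3 library at 10.65 M. A gene of 2 kb at 5 FPKM then rests on 122 fragments at day 4 and 106 at day 3, a counting error of 0.131 and 0.14 on the log2 scale for each library, which leaves out differences between animals, sorts and preparations.

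**Figure D1:**
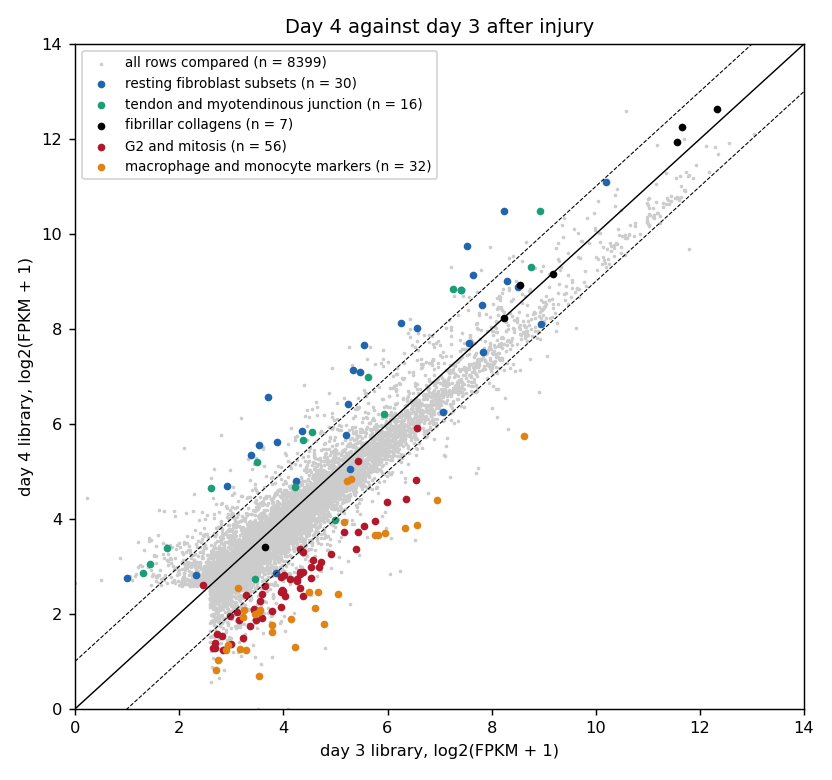
Level of each gene in the day 4 library (vertical axis) against the day 3 library (horizontal axis), both as log2(FPKM + 1), with 1 point per row, the line of equality solid and the 2-fold lines dashed. Resting fibroblast genes (blue) and tendon genes (green) lie mostly above the line, G2 and mitosis genes (red) and macrophage markers (orange) below it, and the 7 fibrillar collagens (black) close to it.

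The threshold of 2-fold was not a natural break. Tgfbr2, the type II receptor for TGF-beta, was the last gene counted as higher (144.2 FPKM at day 4, against 71.5 FPKM at day 3, log2 difference 1.00), and Ssc5d was the first left out at 0.99. In all, 46 genes lay between 1.0 and 1.1 and 53 between 0.9 and 1.0, Tgfbr2 and Ssc5d included. On the lower side Lmnb2, a lamin of the nuclear envelope, was the last counted and Rnaseh2c the first left out with 72 genes between -1.1 and -1.0 and 111 between -1.0 and -0.9. At the FPKM limit Mtmr1 entered with 5.00 FPKM at day 4, against 4.40 FPKM at day 3, and 720 rows between 4 and 5 FPKM were left out. A gene that is low in 1 library enters only if the other library reaches 5 FPKM, so the counts of members below are of those compared, not of whole lists.

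The defining genes of the sorted cells were high in both libraries. Pdgfra, a receptor used to sort these cells in mouse muscle, stood at 90.3 FPKM at day 4, against 96.8 FPKM at day 3. Ly6a, which encodes the surface protein Sca-1, stood at 1455 FPKM at day 4, against 1434 FPKM at day 3. Both lay within 2-fold. Hic1, the transcription factor gene whose locus drives the Cre, was at 27.8 FPKM at day 4, against 36.6 FPKM at day 3, a log2 difference of -0.39. Among the 26 genes of progenitor identity 24 were compared, 2 were 2-fold higher and 0 lower, with a median of -0.05 (0.12 and 0.23 under the other scalings). The higher pair was Gsn, an actin-severing protein gene (6118 FPKM at day 4, against 1534 FPKM at day 3), and Cd34, a sialomucin of the cell surface (719.9 FPKM at day 4, against 323 FPKM at day 3). Meox1 and Meox2, homeobox genes of the somite lineage, lay lower but within 2-fold, with log2 differences of -0.73 and -0.65.

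Markers of other cells were also present, and those of macrophages differed most. The 52 macrophage and monocyte genes summed to 271.8 FPKM at day 4, against 1306 FPKM at day 3, and in the other libraries the sum was 111.7 FPKM in quiescent, 330.5 FPKM at day 1, 435.4 FPKM at day 2, 789.9 FPKM at day 5, 182.0 FPKM at day 7 and 188.2 FPKM at day 10. Of the 32 compared, 29 were at least 2-fold lower at day 4 and 0 higher, with a median of -2.04. Lyz2, lysozyme (chr10:117277541-117282272 on mm10, the build of all coordinates here), was at 52.6 FPKM at day 4, against 391 FPKM at day 3, a log2 difference of -2.87. Tyrobp, a signalling adaptor of myeloid cells, was at 13.7 FPKM at day 4, against 93.7 FPKM at day 3, a log2 difference of -2.69. Emr1, the table's older symbol for Adgre1 (F4/80), stood at 1.02 FPKM at day 4, against 5.71 FPKM at day 3, Csf1r, the receptor for macrophage colony-stimulating factor, at 3.22 FPKM at day 4, against 8.48 FPKM at day 3, and Ptprc (CD45) at 0.818 FPKM at day 4, against 2.31 FPKM at day 3. All of these defining markers were lower at day 4, and none was at the table's lowest positive value, 0.001, in either library. In sorted bulk RNA, fewer cells of a type and less RNA per cell cannot be told apart.

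The sums of the other marker lists differed less. The 19 neutrophil genes summed to 56.4 FPKM at day 4, against 72.1 FPKM at day 3. The largest of them was G0s2 (18.4 FPKM at day 4, against 33.1 FPKM at day 3). Of the 3 neutrophil genes compared, 1 was 2-fold higher, 1, Mmp9, was 2-fold lower and 1 lay within 2-fold. S100a8 was at 0.434 FPKM at day 4, against 4.95 FPKM at day 3, below the limit of 5 FPKM, and was not compared. Nor was S100a9, at 0.001 FPKM at day 4, against 1.06 FPKM at day 3. Satellite cell and myoblast genes summed to 76.6 FPKM at day 4, against 165.5 FPKM at day 3. The largest of that list was Vcam1, an adhesion molecule that stromal cells also express (15.6 FPKM at day 4, against 58.5 FPKM at day 3). Pax7, which defines satellite cells, was at 0.0588 FPKM at day 4, against 0.178 FPKM at day 3, and Myod1, of committed myoblasts, at 0.485 FPKM at day 4, against 5.11 FPKM at day 3. Endothelial genes summed to 302.2 FPKM at day 4, against 184.1 FPKM at day 3, of which Ramp2 gave 206 FPKM at day 4, against 121 FPKM at day 3, while the defining Pecam1, Cdh5 and Kdr were at 1.41, 0.928 and 0.349 FPKM at day 4, against 0.617, 0.600 and 0.103 FPKM at day 3. Schwann cell genes summed to 272.6 FPKM at day 4, against 216.8 FPKM at day 3, mostly Pmp22. Muscle fibre genes summed to 68.8 FPKM at day 4, against 63.7 FPKM at day 3, red cell genes to 107.6 FPKM at day 4, against 104.5 FPKM at day 3, and lymphocyte genes to 3.84 FPKM at day 4, against 1.98 FPKM at day 3, with Cd79a below 0.2 FPKM in both. Leaving all marker genes out of the comparison gave 272 higher and 355 lower genes.

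Genes of resting fibroblast subsets formed the list with the highest median. All 30 members were compared, 17 were 2-fold higher at day 4, 0 were 2-fold lower, and the median difference was 1.43. These genes mark the adventitial and interstitial fibroblasts of uninjured adult tissue. The list was drawn up with earlier results of these libraries known, so its direction is a description. Pi16, a marker of adventitial fibroblasts (chr17:29318882-29328902), was at 1429 FPKM at day 4, against 299 FPKM at day 3, a log2 difference of 2.25, with a counting error of 0.014. Inmt, which encodes an N-methyltransferase, was at 93.9 FPKM at day 4, against 12 FPKM at day 3, a log2 difference of 2.87. Myoc, the gene for the secreted glycoprotein myocilin, was at 861 FPKM at day 4, against 184 FPKM at day 3, a log2 difference of 2.22.

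Pi16 over the course had 2362 FPKM in the quiescent library and 259, 227, 299, 1429, 1423, 2039 and 1506 FPKM at days 1, 2, 3, 4, 5, 7 and 10 in that order. Its level at day 4 was thus above those of days 1 to 3 and within the range of quiescent and days 5 to 10. Inmt had 258 FPKM in the quiescent library and 10.1, 12.6, 12, 93.9, 62.6, 172 and 225 FPKM at days 1, 2, 3, 4, 5, 7 and 10 in that order, and its day 4 level lay between the low levels of days 1 to 3 and the higher ones of days 7 and 10. Dpp4, a surface peptidase of the same adventitial cells, was at 48.3 FPKM at day 4, against 13.7 FPKM at day 3. Scara5, a ferritin receptor, was at 259 FPKM at day 4, against 93.5 FPKM at day 3, and Apod, the gene for apolipoprotein D, at 558 FPKM at day 4, against 199 FPKM at day 3. The members that lay lowest were Mme, a neutral endopeptidase (6.3 FPKM at day 4, against 13.4 FPKM at day 3, log2 difference -0.98), Lpl, lipoprotein lipase (-0.83), and Mgst1, a glutathione transferase (-0.33). The median log2 level of the list was 7.22 in the quiescent library and 5.31, 5.15, 5.52, 7.12, 6.70, 7.12 and 7.26 at days 1, 2, 3, 4, 5, 7 and 10.

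**Figure D2:**
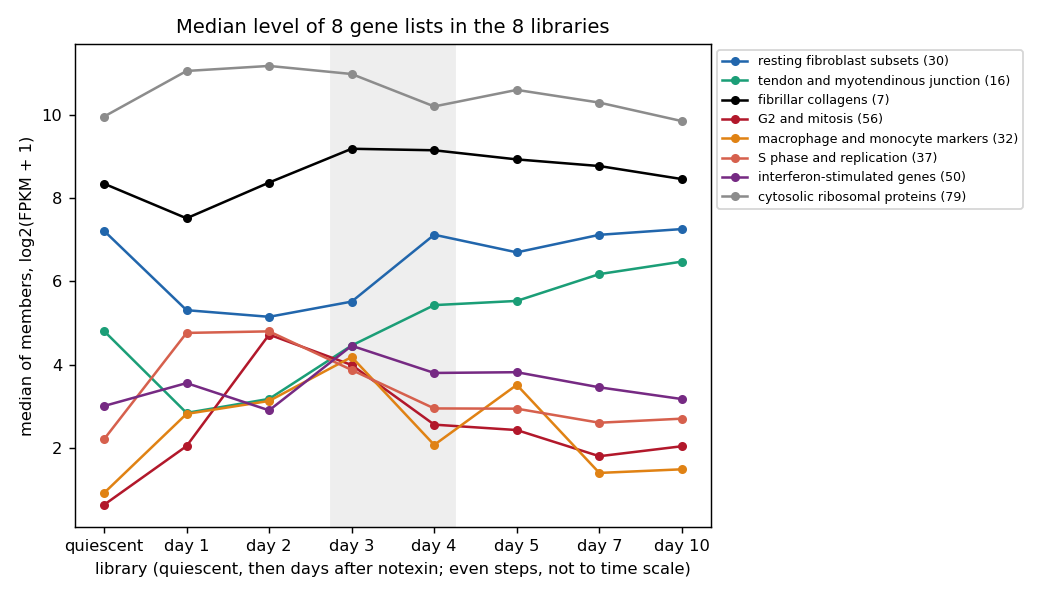
Median log2(FPKM + 1) of the members compared of 8 gene lists (vertical axis) in the 8 libraries in order of time (horizontal axis, even steps), with days 3 and 4 shaded. Resting fibroblast genes stood at 7.12 at day 4, against 5.52 at day 3, and G2 and mitosis genes at 2.56 at day 4, against 3.99 at day 3. The fibrillar collagens stood at 9.15 at day 4, against 9.18 at day 3, the level of Col5a2 in both libraries. The median of the differences of their members was 0.29, and their sum was 16491 FPKM at day 4, against 12617 FPKM at day 3.

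The fibrillar collagens, the chains that build the fibres of scar and tendon, differed little between the days. Of 11 members 7 were compared, 0 passed 2-fold in either direction, and the median difference was 0.29 (0.47 and 0.59 under the other scalings). Col1a1 (chr11:94936270-94951856), a chain of type I collagen, was at 4894 FPKM at day 4, against 3205 FPKM at day 3, a log2 difference of 0.61. Col1a2, its partner chain, was at 3927 FPKM at day 4, against 3003 FPKM at day 3, and Col3a1, of type III collagen, at 6305 FPKM at day 4, against 5139 FPKM at day 3. These 3 were among the most abundant RNAs in both libraries. Of the chains of type V collagen, which starts fibrils, Col5a1 was at 485 FPKM at day 4, against 374 FPKM at day 3, Col5a2 at 566 FPKM at day 4, against 580.4 FPKM at day 3 and Col5a3 at 299.7 FPKM at day 4, against 303 FPKM at day 3. Summed over the list, the level was 16491 FPKM at day 4, against 12617 FPKM at day 3.

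Most of the increase in Col1a1 lay before day 3. Col1a1 had 1174 FPKM in the quiescent library and 628, 1319, 3205, 4894, 4756, 4612 and 4146 FPKM at days 1, 2, 3, 4, 5, 7 and 10 in that order. The step between days 2 and 3 spanned more than that between days 3 and 4, and the levels of days 4, 5 and 7 lay close together. Taking day 2 in place of day 3, the list median was 1.31, and taking day 5 in place of day 4 it was 0.24.

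The other collagen chains included 3 that were 2-fold higher among 12 compared of 25, with none lower and a median of -0.04 (0.16 and 0.27 under the other scalings). They were Col6a6, a chain of the microfibrillar type VI (8.26 FPKM at day 4, against 1.86 FPKM at day 3), Col8a2, of the network-forming type VIII (16 FPKM at day 4, against 4.81 FPKM at day 3), and Col14a1, which binds to fibril surfaces (195 FPKM at day 4, against 90.8 FPKM at day 3). Genes for collagen processing and cross-linking gave few differences past 2-fold. Of 32 members 29 were compared, 1 was 2-fold higher and 0 lower, with a median of -0.14 (0.04 and 0.15 under the other scalings). The 1 higher was Pcolce2, an enhancer of procollagen C-proteinase (164 FPKM at day 4, against 59.2 FPKM at day 3, a log2 difference of 1.46). Ppib, Fkbp10 and P4hb, which fold or hydroxylate procollagen in the endoplasmic reticulum, were lower but within 2-fold, with log2 differences of -0.90, -0.82 and -0.80.

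Matricellular genes, whose products modulate cell contact with the matrix in healing tissue, were more often higher. In this list 7 were 2-fold higher and 2 were 2-fold lower at day 4 among 22 members compared of 25 (median difference 0.60). Tnn, tenascin-N (chr1:160085032-160153575), was at 17.3 FPKM at day 4, against 2.06 FPKM at day 3, a log2 difference of 2.58, with a counting error of 0.096. Tnn had 0.35 FPKM in the quiescent library and 0.193, 0.417, 2.06, 17.3, 1.52, 0.563 and 0.479 FPKM at days 1, 2, 3, 4, 5, 7 and 10 in that order, so that its level stood out at day 4 from both neighbouring days. Tnc, tenascin-C, was at 126 FPKM at day 4, against 48.5 FPKM at day 3, Thbs4, a thrombospondin of tendon and muscle, at 450.3 FPKM at day 4, against 170.1 FPKM at day 3, and Tnxb, tenascin-X, at 241 FPKM at day 4, against 94.4 FPKM at day 3.

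Thbs2, another thrombospondin, was at 232 FPKM at day 4, against 103 FPKM at day 3, and Tgfbi, an integrin-binding matrix protein, at 147 FPKM at day 4, against 59.6 FPKM at day 3. Postn, periostin, a matrix protein of healing tissue, stayed within 2-fold with 1653 FPKM at day 4, against 1048 FPKM at day 3, a log2 difference of 0.66. The members that were 2-fold lower were Spp1, osteopontin, made by macrophages as well as stromal cells (30.5 FPKM at day 4, against 206 FPKM at day 3, a log2 difference of -2.72), and Wisp2, the table's older symbol for the CCN family gene Ccn5 (63.9 FPKM at day 4, against 154 FPKM at day 3, a log2 difference of -1.26). The macrophage markers given above moved with Spp1, and their part in its difference was not tested.

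Elastic fibre and microfibril genes were on balance higher. In this list the median difference was 0.52 over 19 members compared of 20, with 4 higher and 1 lower by 2-fold or more. Ltbp4, a latent TGF-beta binding protein needed for elastic fibre assembly, was at 196 FPKM at day 4, against 37.1 FPKM at day 3, a log2 difference of 2.37. Ltbp4 had 505 FPKM in the quiescent library and 88.3, 34, 37.1, 196, 168, 364 and 464 FPKM at days 1, 2, 3, 4, 5, 7 and 10 in that order. Adamtsl2, a microfibril-associated protein, was at 8.07 FPKM at day 4, against 0.808 FPKM at day 3, Mfap4 at 178 FPKM at day 4, against 78.9 FPKM at day 3, and Eln, elastin itself, at 233 FPKM at day 4, against 110.2 FPKM at day 3. Ltbp2, another protein of the latent TGF-beta binding family, was 2-fold lower, at 10.3 FPKM at day 4, against 24.3 FPKM at day 3. Emilin1, a glycoprotein of elastic fibres, was lower within 2-fold (-0.80).

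Among the small leucine-rich proteoglycans, which bind collagen fibrils and set their spacing, 11 of 16 members were compared, 4 were 2-fold higher, 0 were 2-fold lower, and the median difference was 0.48. The higher ones were Chad, Podn, Fmod and Omd. Fmod, fibromodulin, was at 56.2 FPKM at day 4, against 22.4 FPKM at day 3, and Podn, podocan, at 73.7 FPKM at day 4, against 29.5 FPKM at day 3. The most abundant members were within 2-fold: Dcn, decorin, stood at 3735 FPKM at day 4, against 2324 FPKM at day 3, and Bgn, biglycan, at 1725 FPKM at day 4, against 2069.8 FPKM at day 3. In the basement membrane list 3 were 2-fold higher and 0 were 2-fold lower at day 4 among 14 members compared of 26 (median difference 0.51). The higher ones were Lamb2 and Lama2, chains of laminin (158 FPKM at day 4, against 63.2 FPKM at day 3 for Lamb2), and Nid1, nidogen, which links laminin to type IV collagen (416 FPKM at day 4, against 174 FPKM at day 3). Lamb1 and Nid2, the close relatives of Lamb2 and Nid1, had log2 differences of -0.30 and -0.69, both negative but within 2-fold.

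Most genes of matrix proteases and their inhibitors lay within 2-fold. In this list the median difference was 0.16 over 32 members compared of 41, with 6 higher and 2 lower by 2-fold or more. Over all genes compared 3.29% were higher and 4.66% lower. Timp3, the matrix-bound inhibitor of metalloproteinases (chr10:86300412-86349505), was at 113 FPKM at day 4, against 20.1 FPKM at day 3, a log2 difference of 2.43, with a counting error of 0.047. Timp2 was at 842 FPKM at day 4, against 249 FPKM at day 3, a log2 difference of 1.75. Timp1 was in the opposite direction, at 247 FPKM at day 4, against 605 FPKM at day 3, a log2 difference of -1.29. Over the course Timp3 had 236 FPKM in the quiescent library and 55.6, 18, 20.1, 113, 57.2, 114 and 178 FPKM at days 1, 2, 3, 4, 5, 7 and 10 in that order, while Timp1 had 15.9 FPKM in the quiescent library and 1581, 1277, 605, 247, 275, 208 and 172 FPKM at days 1, 2, 3, 4, 5, 7 and 10 in that order. Timp3 was thus highest in quiescent and lowest at days 2 and 3, and Timp1 highest at days 1 and 2. Mmp2, a gelatinase of stromal cells, was at 738 FPKM at day 4, against 339.6 FPKM at day 3, Mmp13, a collagenase, at 10.1 FPKM at day 4, against 3.24 FPKM at day 3, and Adamts15 at 37.9 FPKM at day 4, against 10.1 FPKM at day 3. Mmp9, a gelatinase of myeloid cells, was 2-fold lower at 3.24 FPKM at day 4, against 11 FPKM at day 3. It is also the 1 neutrophil marker counted as 2-fold lower. It moved with the macrophage markers as well, and the part of either cell type was not tested. For hyaluronan and lubricin genes, 8 of 17 members were compared, 1 was 2-fold higher, 1 was 2-fold lower, and the median difference was -0.20 (-0.03 and 0.08 under the other scalings), with Has1, a hyaluronan synthase, the higher one (214 FPKM at day 4, against 93.3 FPKM at day 3) and Hmmr, a hyaluronan-binding protein of the mitotic spindle, the lower one (3.29 FPKM at day 4, against 9.81 FPKM at day 3).

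**Figure D3:**
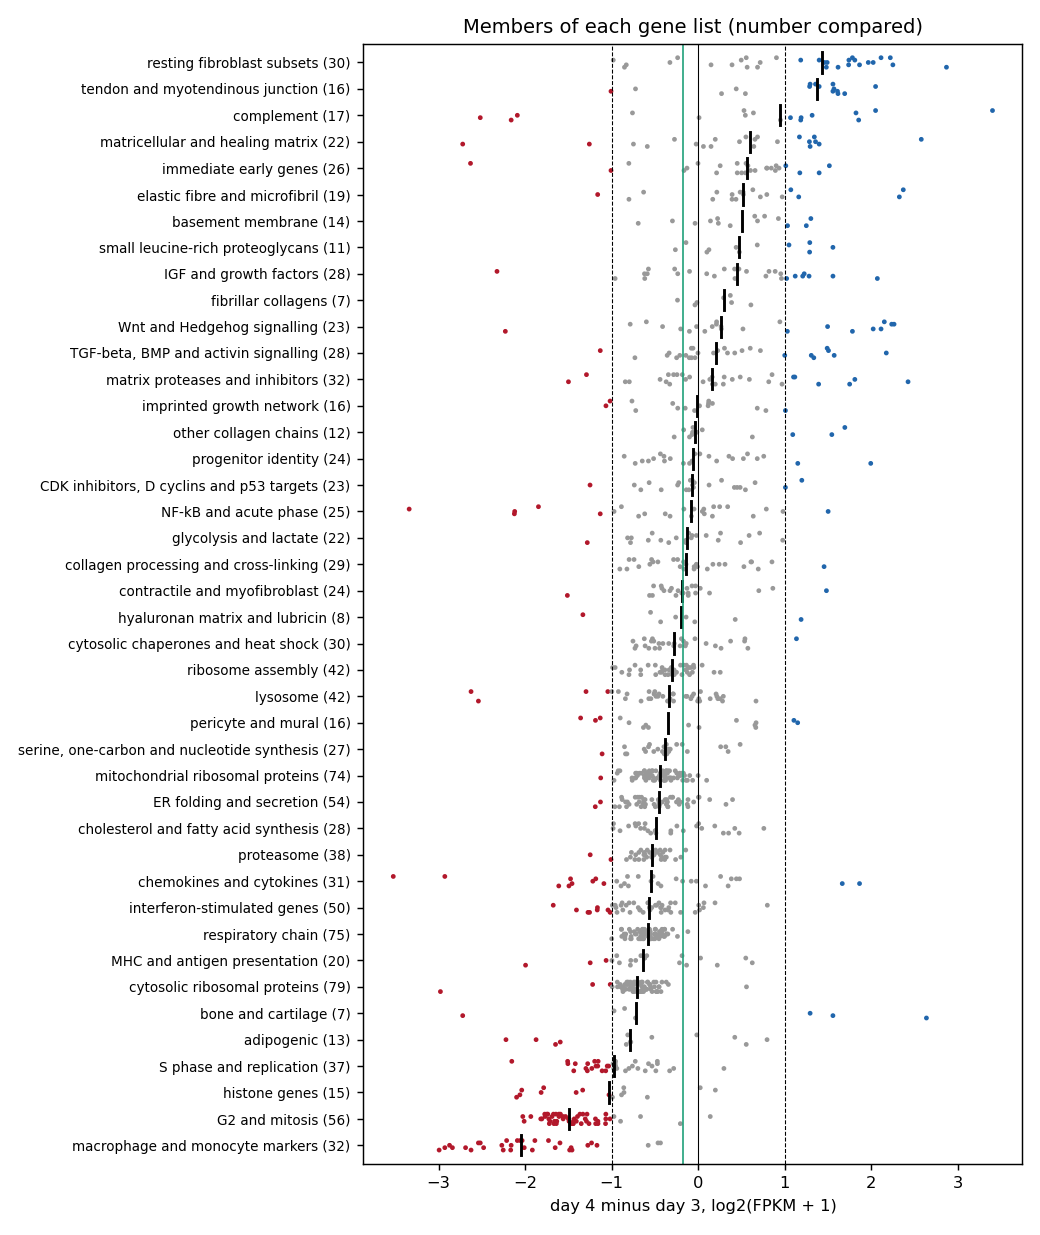
Difference between the day 4 and day 3 libraries on log2(FPKM + 1) (horizontal axis) for every member compared of 42 lists (rows, with the number compared), ordered by the list's median (black bar), with dashed lines at 2-fold and the green line at the median of all 8399 genes, -0.17. Points past 2-fold are blue where higher and red where lower at day 4. Resting fibroblast and tendon genes stand at the top and macrophage markers and mitosis genes at the bottom.

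Tendon and myotendinous junction genes had the next highest median. In this list 11 were 2-fold higher and 1 was 2-fold lower at day 4 among 16 members compared of 22 (median difference 1.38). Scx, scleraxis, the transcription factor that marks tendon cells, was at 7.24 FPKM at day 4, against 1.7 FPKM at day 3. Tnmd, tenomodulin (chrX:133851008-133865578), a membrane protein of mature tendon, was at 35.6 FPKM at day 4, against 10.3 FPKM at day 3, a log2 difference of 1.69. Tnmd had 23.9 FPKM in the quiescent library and 6.27, 6.2, 10.3, 35.6, 30.8, 193 and 437 FPKM at days 1, 2, 3, 4, 5, 7 and 10 in that order, so its level at days 7 and 10 lay well above that of day 4. Cilp, a cartilage and tendon matrix protein, was at 456 FPKM at day 4, against 153 FPKM at day 3, Comp, a thrombospondin of cartilage and tendon, at 49.9 FPKM at day 4, against 19.7 FPKM at day 3, and Clu, clusterin, an extracellular chaperone, at 24.2 FPKM at day 4, against 5.09 FPKM at day 3. Egr2, an early response factor with roles in tendon and in Schwann cells, was the 1 lower member (14.8 FPKM at day 4, against 30.8 FPKM at day 3). Some of these genes, Thbs4, Tnc, Comp, Chad and Fmod among them, also stand in the matrix lists.

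Bone and cartilage genes gave few values, with 7 of 24 compared, 3 higher and 1 lower by 2-fold or more and a median of -0.72 (0.30 with members at 1 FPKM or more). The lower one was Spp1, given above. Comp and Chad were higher, and Bglap, osteocalcin, was at 5.24 FPKM at day 4 and was listed at the table's lowest positive value, 0.001, at day 3. Runx1 and Runx2, transcription factors of blood and bone, had log2 differences of -0.97 and -0.85. Among adipogenic genes the median difference was -0.78 over 13 members compared of 24, with 0 higher and 4 lower by 2-fold or more. This median was -0.03 with day 5 in place of day 4 and -0.05 with day 2 in place of day 3. Cebpa, a transcription factor of adipocytes and of myeloid cells, was at 8.13 FPKM at day 4, against 32.4 FPKM at day 3, Fabp5, a fatty acid carrier, at 22.4 FPKM at day 4, against 108 FPKM at day 3, and Apoe, which macrophages also make, at 170.3 FPKM at day 4, against 536 FPKM at day 3. Apoe was back at 535 FPKM at day 5. The macrophage sum of 789.9 FPKM at day 5 moved the same way, and its part was not tested.

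Contractile genes, which mark myofibroblasts, showed little difference. Of 28 members 24 were compared, 1 was 2-fold higher and 1 lower, with a median of -0.18 (-0.01 and 0.10 under the other scalings). Acta2, smooth muscle actin, stood at 57.3 FPKM at day 4, against 83.1 FPKM at day 3, a log2 difference of -0.53. Itga11, a collagen-binding integrin of fibroblasts, was the higher one (33.6 FPKM at day 4, against 11.4 FPKM at day 3), and Des, desmin, an intermediate filament of muscle and pericytes, the lower one (12 FPKM at day 4, against 36 FPKM at day 3). Of pericyte and mural genes 16 of 20 were compared, 2 were 2-fold higher and 3 lower. Rgs5, a regulator of G protein signalling that marks pericytes, was at 16.3 FPKM at day 4, against 7.03 FPKM at day 3, while Notch3, a receptor that keeps mural cells mature, was at 3.8 FPKM at day 4, against 11.3 FPKM at day 3.

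Signalling genes differed in both directions. For TGF-beta, BMP and activin signalling 28 of 41 members were compared, 7 were 2-fold higher, 1 was 2-fold lower, and the median difference was 0.20. The BMP ligands were among the higher ones: Bmp7 was at 11 FPKM at day 4, against 1.66 FPKM at day 3, a log2 difference of 2.18, Bmp6 at 8.62 FPKM at day 4, against 2.23 FPKM at day 3 and Bmp2 at 19.1 FPKM at day 4, against 6.08 FPKM at day 3. The BMP antagonists Chrd, chordin, and Chrdl1 were higher as well, at 13 and 17.6 FPKM at day 4, against 4.53 and 6.53 FPKM at day 3. Bmper, a BMP-binding protein, was the 1 lower member (24.5 FPKM at day 4, against 54.8 FPKM at day 3). Bmp5 lay lower within 2-fold (-0.73).

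For Wnt and Hedgehog signalling 8 were 2-fold higher and 1 was 2-fold lower at day 4 among 23 members compared of 48 (median difference 0.27). Wnt10b, a ligand that acts against fat formation, was at 16.8 FPKM at day 4, against 2.71 FPKM at day 3, a log2 difference of 2.26. Wnt10b had 42.1 FPKM in the quiescent library and 2.06, 1.3, 2.71, 16.8, 7.38, 13.4 and 19.7 FPKM at days 1, 2, 3, 4, 5, 7 and 10 in that order. Wnt2 was at 25 FPKM at day 4, against 6.56 FPKM at day 3 and Wnt9a at 18.8 FPKM at day 4, against 6.01 FPKM at day 3. Secreted inhibitors were higher too. Dkk2, which blocks Wnt co-receptors, was at 27.9 FPKM at day 4, against 5.13 FPKM at day 3, a log2 difference of 2.24, Dkk3 at 15.7 FPKM at day 4, against 2.77 FPKM at day 3, and Sfrp4, a Wnt-binding protein, at 202 FPKM at day 4, against 45.9 FPKM at day 3. Its relative Sfrp2 (chr3:83766321-83774314) moved in the other direction, with 101 FPKM at day 4, against 479 FPKM at day 3, a log2 difference of -2.23 and a counting error of 0.033. Sfrp2 had 60.8 FPKM in the quiescent library and 26.2, 241, 479, 101, 99.8, 51.6 and 60 FPKM at days 1, 2, 3, 4, 5, 7 and 10 in that order, the highest of these at day 3.

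Among IGF and other growth factor genes the median difference was 0.45 over 28 members compared of 47, with 7 higher and 1 lower by 2-fold or more. Igfbp5 and Igfbp6, which bind insulin-like growth factors, were at 628 and 1432 FPKM at day 4, against 149 and 485 FPKM at day 3. Fgf18 was at 25.6 FPKM at day 4, against 9.94 FPKM at day 3, and the platelet-derived growth factor ligands Pdgfa, Pdgfc and Pdgfd were at 7.80, 11.7 and 9.71 FPKM at day 4, against 3.33, 4.50 and 3.57 FPKM at day 3. Angptl4, an inhibitor of lipoprotein lipase, was the 1 lower member (28.3 FPKM at day 4, against 146 FPKM at day 3, a log2 difference of -2.32). In the imprinted growth network 16 of 22 were compared, 1 was higher, Cdkn1c (48.5 FPKM at day 4, against 23.6 FPKM at day 3), and 2 were lower, Mest (52.3 FPKM at day 4, against 107 FPKM at day 3) and Peg10 (3.89 FPKM at day 4, against 9.22 FPKM at day 3). Cdkn1c and Mest then stood at 179.5 and 195 FPKM at day 5.

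Genes of cell division were lower at day 4. Among those of G2 and mitosis, 56 of 63 members were compared, 51 were at least 2-fold lower, 0 were higher, and the median difference was -1.49. Many of these genes are held down outside late cell cycle by the DREAM complex at a promoter motif called the cell cycle homology region, next to CCAAT boxes bound by NF-Y. The stretches of 150 bases before the annotated start are shown for 3 of them that were lower at day 4, Cdc20 at chr4:118437344-118437493, Cdk1 at chr10:69352913-69353062 and Top2a at chr11:99024190-99024339, all on the minus strand of GRCm38.p6 and from RefSeq, in the direction of transcription. Capitals mark the letters TTTGAA of the cell cycle homology region or its reverse complement TTCAAA, and CCAAT or its reverse complement ATTGG, none of which overlap here.
Cdc20: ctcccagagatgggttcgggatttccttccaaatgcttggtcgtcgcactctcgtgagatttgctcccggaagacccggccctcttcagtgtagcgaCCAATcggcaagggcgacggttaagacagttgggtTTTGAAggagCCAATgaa
Cdk1: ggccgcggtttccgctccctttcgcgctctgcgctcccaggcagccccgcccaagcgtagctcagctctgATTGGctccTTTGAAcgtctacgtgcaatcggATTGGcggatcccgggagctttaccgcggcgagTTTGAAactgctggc
Top2a: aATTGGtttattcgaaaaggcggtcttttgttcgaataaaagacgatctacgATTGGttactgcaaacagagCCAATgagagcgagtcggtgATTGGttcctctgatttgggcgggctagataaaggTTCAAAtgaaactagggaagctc
In windows of 250 bases before to 50 after the start, counting both strands, TTTGAA was found in 36 of 50 promoters of 46 genes of the list (72.0%), in 11.7% of promoters of the genes compared and in 17.9% of all 32851 promoters in the table. CCAAT was found in 37 of these 50 promoters (74.0%), against 37.4% of all. Promoters were matched for 191 of the 276 genes higher at day 4 and for 283 of the 391 lower ones. TTTGAA was in 27 of the 248 promoters of the higher genes (10.9%) and in 79 of the 354 promoters of the lower ones (22.3%). The lower genes include the 51 of G2 and mitosis, so this count shares promoters with the one for that list. A match is only a match of letters.

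Cdc20, the activator of the anaphase-promoting complex, was at 9.37 FPKM at day 4, against 41.2 FPKM at day 3, a log2 difference of -2.03, with a counting error of 0.109. Birc5, survivin, of the chromosomal passenger complex, was at 20.4 FPKM at day 4, against 80.8 FPKM at day 3, a log2 difference of -1.93. Cdk1, the kinase that drives mitosis, was at 6.88 FPKM at day 4, against 22.2 FPKM at day 3, and Top2a, which untangles sister chromatids, at 7.81 FPKM at day 4, against 22.8 FPKM at day 3. Cdc20 had 1.01 FPKM in the quiescent library and 5.5, 79.7, 41.2, 9.37, 8.86, 3.79 and 5.81 FPKM at days 1, 2, 3, 4, 5, 7 and 10 in that order. The highest level was therefore at day 2, and the day 4 level lay close to that of day 5 and above the quiescent one. Mki67, the usual marker of cycling cells, was at 4.69 FPKM at day 4, against 14.6 FPKM at day 3, a log2 difference of -1.46. The 1 member above 0 was Hjurp, which loads the centromeric histone (0.14).

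For S phase and replication 37 of 50 members were compared, 17 were 2-fold lower, 0 higher, and the median was -0.98. Tk1, thymidine kinase, was at 13 FPKM at day 4, against 61.4 FPKM at day 3, a log2 difference of -2.15, and Gins2, of the replicative helicase, at 9.15 FPKM at day 4, against 27.9 FPKM at day 3. E2f1, a transcription factor of this program, was within 2-fold (0.30). The E2F motif TTCCCGC, read on both strands, was found in 13 of 38 promoters of the S phase genes (34.2%), in 8.3% of those of the genes compared and in 0 of 50 of the G2 and mitosis genes. Histone genes were lower, with 15 of 36 compared, 8 at least 2-fold lower, 0 higher and a median of -1.03. With members down to 1 FPKM taken in, the histone median was -0.78. Replication-dependent histone RNAs lack a poly(A) tail and are near copies of each other, so their FPKM in polyA libraries is uncertain. Among CDK inhibitors, D cyclins and p53 targets 23 of 34 were compared and the median was -0.06 (0.10 and 0.22 under the other scalings). Cdkn1a, the p21 inhibitor, was 2-fold higher at 49.3 FPKM at day 4, against 20.9 FPKM at day 3, a log2 difference of 1.20, Cdkn1c was higher as given above, and Cdkn2c, p18, was lower at 10.2 FPKM at day 4, against 25.5 FPKM at day 3.

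Genes of growth and protein synthesis lay mostly below 0, by amounts that moved with the scaling. The median of all genes moved with it too, from -0.17 to 0.00 and 0.12 under the other scalings. Of 79 cytosolic ribosomal protein genes 78 lay below 0, 3 were 2-fold lower, 0 higher, and the median was -0.71 (-0.53 and -0.42 under the other scalings). Of 75 respiratory chain genes all 75 lay below 0, 0 passed 2-fold, and the median was -0.58 (-0.40 and -0.29). For mitochondrial ribosomal proteins it was -0.44 (-0.28 and -0.18), with 1 of 74 lower by 2-fold. For the proteasome it was -0.53 (-0.36 and -0.25), with 2 of 38, and for ribosome assembly -0.31 (-0.13 and -0.02), with 0 of 42. Ribosomal and respiratory transcripts are short, and the median of genes with short transcripts was -0.40 as given above, so that the part of transcript length in these medians was not tested. Rps27 had 91.3 FPKM at day 3 and between 8.93 and 16.8 FPKM in the other 7 libraries. Ribosomal protein genes have many processed copies, and reads can be split among them, so this value is uncertain.

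In the secretory pathway, 54 of 55 genes of folding and transport in the endoplasmic reticulum were compared, 0 were 2-fold higher and 2 were lower. The median was -0.46 (-0.28 and -0.16 under the other scalings). The lower pair was Pdia6 and Pdia3, disulphide isomerases, with 277 FPKM at day 4, against 606 FPKM at day 3 for Pdia3. Among cytosolic chaperones 30 of 30 were compared, and 1 passed 2-fold, Hspb8, a small heat shock protein (57 FPKM at day 4, against 25.4 FPKM at day 3). Glycolysis genes had 1 of 22 lower, Ldhb (3.69 FPKM at day 4, against 10.4 FPKM at day 3), and a median of -0.12 (0.04 and 0.15 under the other scalings). Cholesterol and fatty acid synthesis had a median of -0.49 over 28 genes (-0.32 and -0.21 under the other scalings), with 0 past 2-fold. Serine, one-carbon and nucleotide synthesis had -0.38 over 27 genes (-0.22 and -0.12 under the other scalings). Tyms, thymidylate synthase, was the 1 lower there (7.31 FPKM at day 4, against 16.9 FPKM at day 3).

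Interferon-stimulated genes were lower at day 4. In this list 50 of 57 members were compared, 0 were 2-fold higher and 8 were 2-fold lower. The median difference was -0.57 (-0.41 and -0.30 under the other scalings). The macrophage markers given above were lower as well, and their part was not tested. Isg15, a ubiquitin-like protein, was at 79.7 FPKM at day 4, against 257 FPKM at day 3, a log2 difference of -1.67. Its promoter stretch of 150 bases before the start, at chr4:156200819-156200968 on the minus strand (GRCm38.p6, RefSeq), is shown because it holds a run of the interferon response element. Capitals mark 3 overlapping matches to GAAANNGAAA.
Isg15: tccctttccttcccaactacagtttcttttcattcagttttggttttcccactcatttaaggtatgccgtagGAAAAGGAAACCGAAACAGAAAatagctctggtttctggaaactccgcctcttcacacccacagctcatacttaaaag
On both strands GAAANNGAAA was found in 21 of 40 promoters of 35 genes of the list (52.5%), against 3.2% of those of the genes compared and 3.4% of all promoters. Isg15 had 13.7 FPKM in the quiescent library and 157, 42.7, 257, 79.7, 109, 45.9 and 17.8 FPKM at days 1, 2, 3, 4, 5, 7 and 10 in that order. The day 3 and day 1 libraries were thus high, and day 2 lay below day 4. Rsad2, viperin, was at 3.63 FPKM at day 4, against 10.2 FPKM at day 3, and Mx1, an antiviral GTPase, at 2.42 FPKM at day 4, against 8.07 FPKM at day 3. Taking day 2 in place of day 3 the list's median was 0.91, so the sign was not that seen against day 3. Irf1 and Irf7, transcription factors of this response, lay above 0 within 2-fold (0.80 and 0.07).

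Of 25 antigen presentation genes 20 were compared, 16 of these lay below 0, 0 were 2-fold higher, 3 were lower, and the median was -0.64 (0.115 with day 5 in place of day 4 and 0.156 with day 2 in place of day 3). B2m, H2-K1 and H2-D1, the light chain and heavy chains of class I, which most cells express, lay above 0 but within 2-fold (0.22, 0.55 and 0.63). Psmb9, an immunoproteasome subunit that helps make class I peptides, was at 14.7 FPKM at day 4, against 36.4 FPKM at day 3, a log2 difference of -1.25. H2-Ab1, a class II chain of antigen-presenting cells, was at 11.2 FPKM at day 4, against 47.6 FPKM at day 3, a log2 difference of -1.99, and Cd74, the class II invariant chain, at 35.4 FPKM at day 4, against 75.2 FPKM at day 3. At day 5 these were 75.1 and 198 FPKM. The macrophage sum also stood lower at day 4 than at days 3 and 5, and its part was not tested.

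Complement genes divided. In this list 8 were 2-fold higher and 3 were 2-fold lower at day 4 among 17 members compared of 26 (median difference 0.95). The higher ones were components and regulators that fibroblasts are known to express. C7, a component of the membrane attack complex (chr15:4988762-5063773), was at 44.2 FPKM at day 4, against 3.27 FPKM at day 3, a log2 difference of 3.40, with a counting error of 0.124. C7 had 112 FPKM in the quiescent library and 30.3, 7.15, 3.27, 44.2, 22.3, 46 and 108 FPKM at days 1, 2, 3, 4, 5, 7 and 10 in that order, the lowest level being that of day 3. C2 was at 43 FPKM at day 4, against 11.2 FPKM at day 3, C3 at 439 FPKM at day 4, against 209 FPKM at day 3, Cfb, factor B, at 202 FPKM at day 4, against 87.9 FPKM at day 3, and C4b at 87 FPKM at day 4, against 23.8 FPKM at day 3. C4a and C4b are near copies, so the split of reads between them is uncertain. The 3 lower ones were the chains of C1q, typical products of macrophages: C1qa was at 11.6 FPKM at day 4, against 55.4 FPKM at day 3, C1qb at 13 FPKM at day 4, against 79.3 FPKM at day 3 and C1qc at 11.7 FPKM at day 4, against 53.1 FPKM at day 3. Their levels returned to 54.7, 50.9 and 44.6 FPKM at day 5, when macrophage markers were higher again. C1qa is itself one of the defining macrophage markers used here, and the part of macrophages in these levels was not tested. Lysosomal genes gave 0 higher and 4 lower of 42 compared, and the lowest were Cd68 (-2.62) and Ctss, cathepsin S (-2.54), both markers of macrophages. Cd68 is also one of the defining macrophage markers used here, and the part of macrophages in this list was not tested.

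Among chemokine and cytokine genes the median difference was -0.54 over 31 members compared of 45, with 2 higher and 9 lower by 2-fold or more. Of these members 23 of 31 lay below 0, where 65.7% of all genes compared did. The macrophage markers moved the same way, with a median of -2.04, and their part was not tested. Cxcl5, which attracts neutrophils (chr5:90759299-90761625), was at 1.43 FPKM at day 4, against 27 FPKM at day 3, a log2 difference of -3.52, with a counting error of 0.168. Cxcl5 had 0.0354 FPKM in the quiescent library and 1269, 369, 27, 1.43, 2.13, 0.476 and 0.727 FPKM at days 1, 2, 3, 4, 5, 7 and 10 in that order, so the level at day 3 was already far below that of day 1. Cxcl12, the stromal ligand of CXCR4, was at 257 FPKM at day 4, against 788 FPKM at day 3, a log2 difference of -1.61. Ccl9, a chemokine of myeloid cells, was at 1.45 FPKM at day 4, against 17.6 FPKM at day 3, and Il1r1, the receptor for interleukin-1, at 28 FPKM at day 4, against 79.7 FPKM at day 3. The higher ones were Cxcr7, the table's older symbol for Ackr3, a scavenger receptor for CXCL12 (278 FPKM at day 4, against 75.6 FPKM at day 3), and Csf2, a growth factor of myeloid cells (6.11 FPKM at day 4, against 1.24 FPKM at day 3).

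In the list of NF-kB and acute phase genes 25 of 31 were compared, 1 was 2-fold higher and 5 were lower, with a median of -0.08 (0.09 and 0.20 under the other scalings). Ptgs2, cyclooxygenase-2, was the higher one (60.9 FPKM at day 4, against 20.8 FPKM at day 3). Hp, haptoglobin, was the lowest, at 6.46 FPKM at day 4, against 74.5 FPKM at day 3, a log2 difference of -3.34, and Saa3, serum amyloid A3, was at 2.49 FPKM at day 4, against 14.2 FPKM at day 3. Immediate early genes, the first to respond when cells are stimulated, were on balance higher. In this list 26 of 34 members were compared, 4 were 2-fold higher, 2 were 2-fold lower, and the median difference was 0.57. Klf4 was at 241 FPKM at day 4, against 83.5 FPKM at day 3, Atf3 at 225 FPKM at day 4, against 84.8 FPKM at day 3 and Zfp36, which destabilises cytokine RNAs, at 907 FPKM at day 4, against 401 FPKM at day 3, and Rgs1, a regulator found in leukocytes, was the lowest (0.926 FPKM at day 4, against 10.9 FPKM at day 3).

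Several of the largest differences lay outside these groups. The largest among genes of 10 FPKM or more was that of Klk1, tissue kallikrein, a serine protease (chr7:44225437-44229617), at 20.6 FPKM at day 4, against 0.168 FPKM at day 3, a log2 difference of 4.21 and a counting error of 0.198. Klk1 had 1.86 FPKM in the quiescent library and 0.182, 0.416, 0.168, 20.6, 0.586, 4.1 and 2.2 FPKM at days 1, 2, 3, 4, 5, 7 and 10 in that order, and no other library came near the day 4 level. By the depth estimate this is about 201.7 fragments at day 4, against 1.4 fragments at day 3. Pthlh, parathyroid hormone-related protein, was at 53.5 FPKM at day 4, against 5.99 FPKM at day 3, and C1qtnf3, a secreted protein of the C1q and TNF family (chr15:10952332-10980162), at 69 FPKM at day 4, against 8.11 FPKM at day 3. C1qtnf3 had 1.48 FPKM in the quiescent library and 0.0953, 1.01, 8.11, 69, 85.8, 44.2 and 20.3 FPKM at days 1, 2, 3, 4, 5, 7 and 10 in that order, so that unlike Pi16 or C7 it was low in quiescent and highest at day 5. Smpd3, a sphingomyelinase, was at 16.9 FPKM at day 4, against 2.25 FPKM at day 3, Cdh13, a cadherin without a cytoplasmic tail, at 10.4 FPKM at day 4, against 1.31 FPKM at day 3, Cpxm2, a carboxypeptidase-like protein, at 32.2 FPKM at day 4, against 5.34 FPKM at day 3, and Pla1a, a phospholipase, at 144 FPKM at day 4, against 29.7 FPKM at day 3.

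Among the lowest was Trem2, a lipid receptor of macrophages (2.45 FPKM at day 4, against 26.4 FPKM at day 3). Trem2 is itself in the macrophage list, so its agreement with that list is no finding. Pf4, a chemokine of platelets and macrophages, was at 6.14 FPKM at day 4, against 65.1 FPKM at day 3. Ms4a6d was at 0.618 FPKM at day 4, against 10.6 FPKM at day 3. Pf4 and Ms4a6d moved with the macrophage markers, whose part was not tested. Tmem176a, a membrane protein gene, was at 32.6 FPKM at day 4, against 213 FPKM at day 3, and Syngr1, a vesicle protein gene, at 1.12 FPKM at day 4, against 12.7 FPKM at day 3. The predicted gene Gm7367 was at 3.65 FPKM at day 4, against 37.6 FPKM at day 3. S100a4, a calcium-binding protein of motile fibroblasts and of leukocytes, was picked after its value was seen. It had 364 FPKM in the quiescent library and 1235, 6179, 3520.3, 818, 436, 276 and 251 FPKM at days 1, 2, 3, 4, 5, 7 and 10 in that order, and thus lay lower at each later library after day 2. The symbol Hba-a1 stands on 2 rows with 15.9 and 10.4 FPKM at day 3 and under 0.01 FPKM at day 4, while its near copy Hba-a2 stayed within 2-fold on both of its rows, so the values of Hba-a1 are uncertain.

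**Figure D4:**
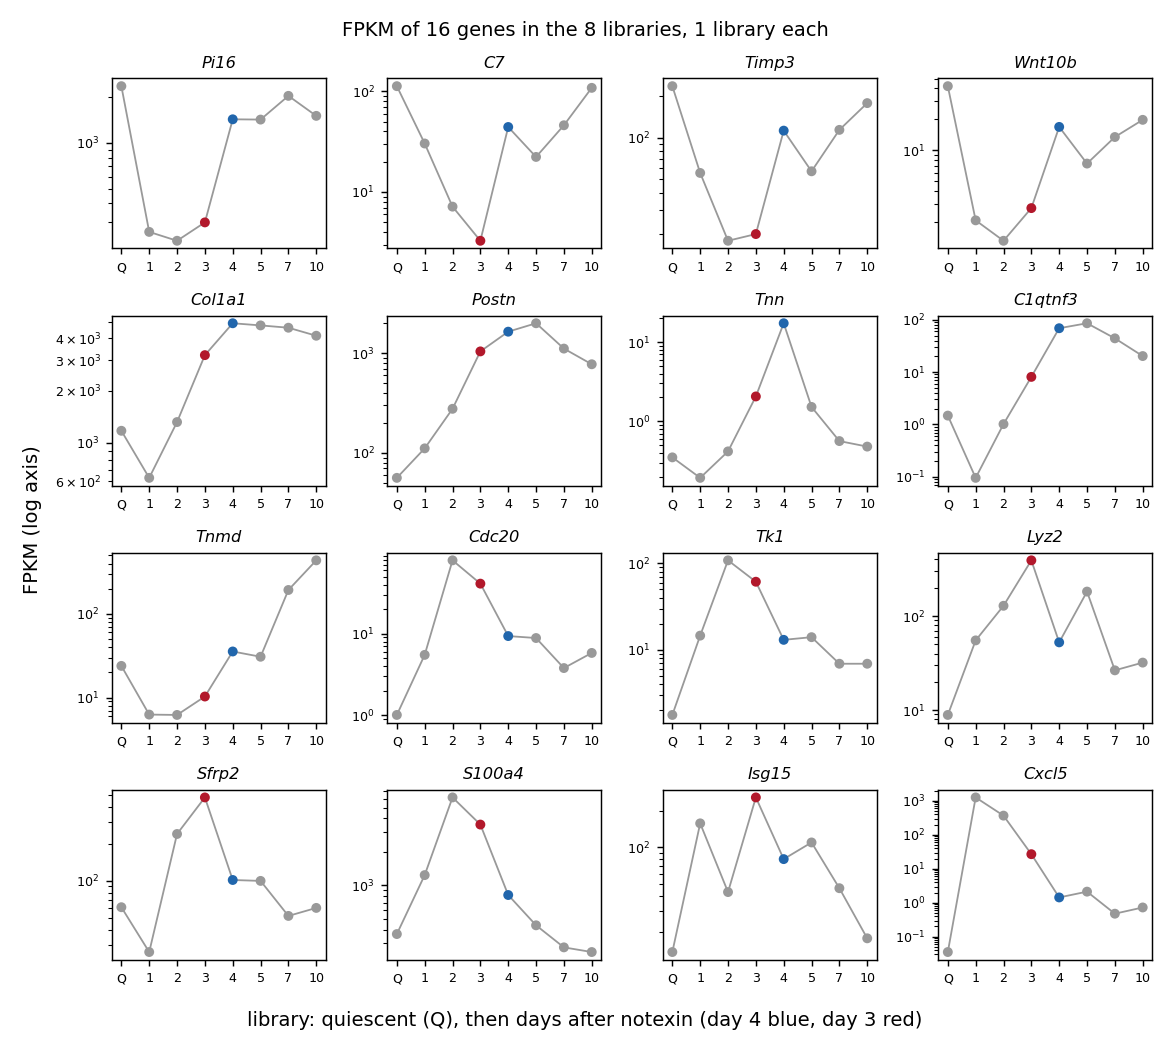
FPKM (vertical axis, logarithmic) of 16 genes in the 8 libraries in order of time (horizontal axis, Q for quiescent), with 1 point per library, the day 4 library in blue and the day 3 library in red. Pi16, C7, Timp3 and Wnt10b were high in quiescent, low by day 3 and higher at day 4, Tnn stood out at day 4, and Cdc20, Tk1, Lyz2, Sfrp2, S100a4, Isg15 and Cxcl5 were lower at day 4 than at day 3.

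Set against the other 6 libraries, the genes that were higher at day 4 had their highest level mostly in quiescent. The median log2 level of the 276 was 4.97 in the quiescent library, 3.16, 2.97 and 2.96 at days 1 to 3, 4.35 at day 4, and 4.04, 4.46 and 4.40 at days 5, 7 and 10. Of the 276, 169 (61.2%) had their highest FPKM in the quiescent library and 33 (12.0%) at day 4, where 15.1% and 2.7% of all genes compared did. The 391 lower genes had a median of 1.72 in quiescent, 2.90, 4.11 and 4.14 at days 1 to 3, 2.74 at day 4, and 3.10, 2.57 and 2.51 at days 5, 7 and 10. Day 3 was the highest library for 176 of them (45.0%) and day 2 for 159 (40.7%), against 14.3% and 21.9% of all genes compared. The sets were chosen by their day 4 and day 3 values, so those 2 levels are no finding. Nor are the shares of genes highest at day 4 or at day 3, which that choice shapes. The other 6 libraries did not enter the choice, but their shares of highest genes are counted beside those 2. With day 5 in place of day 4, 232 genes were higher and 273 lower than at day 3, and with day 2 in place of day 3, day 4 had 527 higher and 1291 lower.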

How the data were processed

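Polyadenylated RNA was sequenced from tdTomato-positive cells with a stranded kit, per the labels' protocols. The authors deposited 1 table of FPKM values, and the submitters' processing notes name bcl2fastq, TopHat2, Bowtie2, Cufflinks and mm10. The sources used here do not give versions, gene annotation or the treatment of multi-mapping reads, and FPKM moves with the total of mapped fragments and the transcript models. The values are listed with a lowest positive value of 0.001.

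From the table, log2(FPKM + 1) was compared between the day 4 and day 3 libraries (python 3.11.15, pandas 2.3.3, numpy 2.4.6). Rows with the same symbol were kept apart, except 1 row that repeats another. Depth was estimated from the steps between low values of 2085 genes with 1 transcript in GENCODE M21. The fit was tried on simulated counts. These were whole fragments by construction, so the trial does not check the transcript lengths assumed. Of the low values in the range checked, 283 at day 4 and 269 at day 3, 80.9% and 82.2% lay within 0.15 of whole fragments. The share by chance is 30% at a depth not fitted to these values. The depth given here was chosen to bring them near whole fragments. Transcript lengths came from GENCODE M21 for 94.5% of rows.

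The comparison and the 50 lists (41 of functions, 9 of cell markers) were chosen with earlier results of these data known. Named genes were the 15 largest increases and 15 largest decreases at 10 FPKM or more, up to 3 each way per list, fixed marker genes, and others picked after their values were seen. Promoters (RefSeq, GRCm38.p6) were matched by symbol.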

Additional observations from a re-analysis of the deposited data

How the results depend on the processing

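The alternatives were other scalings, pseudocounts, FPKM limits and a neighbouring library. The 276 higher and 391 lower genes became 470 and 225 at a common sum, 139 and 178 with a pseudocount of 5, 137 and 171 at 20 FPKM or more and 527 and 1291 with day 2 in place of day 3. The counts stayed within 1.5 times of these under median-ratio scaling (365 and 276), a pseudocount of 0.1 (313 and 479), 1 FPKM or more (360 and 560), with short rows (291 and 413), without other cell markers (272 and 355) and with day 5 in place of day 4 (232 and 273). 

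Of the named genes past 2-fold, these log2 differences changed sign with day 2 in place of day 3: Apoe 0.74, C1qc 0.46, Cd74 0.32, Csf1r 0.06, Gucy1a3 1.33, Hp 0.75, Hspb8 -0.12, Isg15 0.89, Mest 3.47, Mx1 1.28 and Rsad2 1.24. With day 5 in place of day 4 they were Cd74 1.38, H2-Ab1 0.65, Mest 0.86, Saa3 0.34 and Tnn -0.28. S100a8 and S100a9 stood at 2.52 and 3.97 with day 5, but lay below 5 FPKM at days 3 and 4 and were not compared there. Genes within 2-fold changed sign too, and with day 2 in place of day 3 these included E2f1 at -0.89, Lpl at 0.73, Lamb1 at 0.58, Nid2 at 0.49, Bgn at 0.42, Bmp5 at 0.29 and Hic1 at 0.12, and with day 5 in place of day 4 Hic1 at 0.21, Lamb1 at 0.17 and Bgn at 0.09. These settings compare other libraries. List medians also changed sign. With day 2 in place of day 3 they were 0.91 for interferon-stimulated genes, 0.156 for antigen presentation, 0.395 for lysosome and 1.425 for pericyte. With day 5 in place of day 4 they were 2.285 for neutrophil markers, 0.115 for antigen presentation and 0.08 for pericyte. TGF-beta, BMP and activin signalling then stood at -0.03. Bone and cartilage stood at 0.30 with members at 1 FPKM or more. Other lists with medians close to 0 turned under 1 or more settings. The macrophage median was -0.61 with day 5 in place of day 4 and -0.66 with day 2 in place of day 3, the histone median was -0.85 under median-ratio scaling, -0.89 at a common sum, -0.98 with a pseudocount of 5 and -0.78 with members at 1 FPKM, and the fibrillar collagen median was 1.31 with day 2 in place of day 3. The cause was not tested. No paired analysis was possible because each time point is 1 library. Depth limits genes near 5 FPKM, where counting error alone is about 0.13 a library.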

Other observations

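Some genes were at their highest in the day 4 library or shared a peak with day 2, and these were picked after their values were seen. Rmrp, the RNA of the RNase MRP complex, had 20.7 FPKM in the quiescent library and 18.7, 206, 38.8, 149.6, 24, 26.1 and 19.3 FPKM at days 1, 2, 3, 4, 5, 7 and 10 in that order. Rpph1, the RNA of RNase P, had 15.9 FPKM in the quiescent library and 22.9, 243, 47.4, 165, 27.2, 26 and 9.34 FPKM at days 1, 2, 3, 4, 5, 7 and 10 in that order. These RNAs are short and not typically polyadenylated. Pgr, the progesterone receptor, had 1.04 FPKM in the quiescent library and 0.455, 0.228, 0.406, 5.57, 0.414, 1.51 and 1.15 FPKM at days 1, 2, 3, 4, 5, 7 and 10 in that order. Dkk2 had 16.7 FPKM in the quiescent library and 21.3, 9.22, 5.13, 27.9, 7.96, 11.1 and 12.9 FPKM at days 1, 2, 3, 4, 5, 7 and 10 in that order, with its day 4 level above those of all other libraries.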
